A study of Mus musculus with 2 samples.

Results

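The Hsp and Dnaj families hold the main protein-folding helpers of the cell, and their transcripts were followed here through single cells of the mouse spleen. Every gene of the deposited matrix whose symbol begins with Hspa, Hspb, Hspd, Hspe, Hsph, Hsp90, Dnaja, Dnajb or Dnajc was taken, pseudogenes left out, which gave 75 of 32285 genes. Of these, 30 carry an Hsp name and 45 a Dnaj name. By textbook location of their proteins, 47 were placed in the cytosol and nucleus, 14 in the endoplasmic reticulum (ER) and 8 in mitochondria, and 6 were left without a place. The cells came from spleens of wild-type mice, with no treatment, age or sex given in the labels. Natural killer (NK) cells had been enriched by depleting other lineages with antibodies, cells of several mice were joined by lipid tags, and droplets were sequenced from the 3′ end with unique molecular identifiers (UMIs). Per the labels there is 1 group, so the comparisons below are between classes of cells within it. The labels do not say which tag marks which mouse, and the 3 tags, called tag 1, tag 2 and tag 3, served as replicates of 1 library. The p-values below therefore cover only the spread between tags, which may be technical. The fit shares that spread over genes, so a p-value does not rest on the gene's own spread alone.

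Hsp70 proteins bind short greasy stretches of unfolded chains and let go of them in a cycle driven by ATP. J proteins, the products of the Dnaj genes, bring clients to Hsp70 and switch on its ATPase, and exchange factors such as the Hsp110 proteins reset it. Hsp90 receives partly folded kinases and receptors from Hsp70, and in mitochondria the chaperonin ring of Hspd1, capped by Hspe1, encloses imported chains while they fold. In the ER, Hspa5 (BiP) and Hsp90b1 (Grp94) fold secreted and membrane proteins and are transcribed more when unfolded chains collect there, through ER stress elements in their promoters. The heat shock factor Hsf1 acts on the cytosolic genes through heat shock elements, repeats of the unit GAA in alternating orientation. Antibody-secreting plasma cells are known for a large ER, and erythroid precursors for heavy protein and haem synthesis.

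The promoters of the members that the results below turn on are shown to place these elements. The 250 bases upstream of each annotated start were searched on both strands in 32851 promoters from RefSeq (GRCm38.p6), where 60 of the 75 members had an entry. The ER stress element, CCAAT followed after any 9 bases by CCACG, was found in 37 promoters, 0.113% of those searched, and 3 of these belonged to members (Hsp90b1, Hspa5 and Dnajc3). Capitals mark the element in the first 3 sequences, each written 5′ to 3′ on the strand of its gene. Where an annotated exon or untranslated region reaches into the window, only the remaining stretch or 30 bases around the match are printed.
Hsp90b1, minus strand, chr10:86705510-86705694: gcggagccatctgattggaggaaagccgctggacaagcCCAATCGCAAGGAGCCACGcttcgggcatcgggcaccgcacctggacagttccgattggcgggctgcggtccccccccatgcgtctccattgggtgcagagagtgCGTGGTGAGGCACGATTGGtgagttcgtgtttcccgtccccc
Hspa5, plus strand, chr2:34772017-34772046: cgacttcaCCAATCGGAGGCCTCCACGacg
Dnajc3, plus strand, chr14:118937682-118937931: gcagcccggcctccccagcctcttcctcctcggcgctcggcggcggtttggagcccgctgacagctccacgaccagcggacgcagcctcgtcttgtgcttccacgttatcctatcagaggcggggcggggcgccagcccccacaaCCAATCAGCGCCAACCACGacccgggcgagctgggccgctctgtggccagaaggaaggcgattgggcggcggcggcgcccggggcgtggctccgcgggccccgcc
The Hsp90b1 promoter held the element 2 times, beginning at -107 and -212 from the start, and those of Hspa5 and Dnajc3 held it at -65 and -105. A related element, ATTGG and CCACG with 1 base between them, was in 10 promoters (0.0304%) and in none of the members, and the Xbp1 site TGACGTGG was in 185 promoters (0.563%), of which Dnajc25 was the only member.

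The shortest heat shock element searched, the facing units GAANNTTC or the back-to-back units TTCNNGAA, was in 4218 promoters (12.8%) and in 14 of the 60 members. A run of 3 units, GAA, TTC and GAA with 2 bases between each, was in 153 promoters (0.466%), among them Dnajb6, Hspd1 and Hspe1. Hspd1 and Hspe1 lie head to head on chromosome 1 with overlapping annotated 5′ ends, and the Hspe1 stretch printed below lies within annotated Hspd1. Capitals mark the heat shock units in the next 3 sequences, shown because Hspa1a and Hspa1b, the stress-inducible Hsp70 genes, differed between dendritic and NK-like cells and Hspe1 between erythroid and NK-like cells.
Hspa1a, minus strand, chr17:34972157-34972406: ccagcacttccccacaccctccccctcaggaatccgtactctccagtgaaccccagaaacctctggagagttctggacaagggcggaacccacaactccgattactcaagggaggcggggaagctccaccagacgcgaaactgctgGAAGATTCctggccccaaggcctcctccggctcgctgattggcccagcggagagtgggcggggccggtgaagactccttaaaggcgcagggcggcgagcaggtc
Hspa1b, minus strand, chr17:34959239-34959488: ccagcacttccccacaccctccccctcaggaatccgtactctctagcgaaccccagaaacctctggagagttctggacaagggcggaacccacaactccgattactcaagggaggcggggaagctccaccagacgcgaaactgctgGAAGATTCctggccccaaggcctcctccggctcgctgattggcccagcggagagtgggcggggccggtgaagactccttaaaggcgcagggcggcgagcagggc
Hspe1, plus strand, chr1:55088051-55088080: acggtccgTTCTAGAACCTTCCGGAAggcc
The Hspa1a and Hspa1b windows differed at 3 of 250 positions, and each held GAANNTTC at -104. These matches are letters in a window and were not measured as bound sites. Reads of the 2 genes are hard to separate along much of their length, since 58.8% of the 50-base words of the Hspa1a transcript also occur in Hspa1b, but none of those in its last 400 bases do.

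Of 16384 barcodes, 11696 passed the filters on genes, mitochondrial UMIs and tags and were analysed, with a median of 4026.5 to 4433 UMIs per tag. Clusters were named by marker genes after the members had been left out of clustering. NK-like cells numbered 9069, ILC1-like cells (innate lymphoid cells related to NK cells) 505, B cell-like cells 713, conventional dendritic cell-like cells (dendritic cells below) 558, erythroid-like cells 126 and plasma cell-like cells 61. The classes other than NK-like and ILC1-like are types that the depletion was meant to remove. Their defining markers were detected: Ncr1 had a UMI in 91.8% of NK-like cells, Cd79a in 98.0% of B cell-like, Flt3 in 80.1% of dendritic and Klf1 in 90.5% of erythroid-like cells, where the haemoglobin gene Hba-a1 had a UMI in 38.9%. In plasma cell-like cells Jchain had a UMI in 83.6% and Mzb1 in 68.9%, and the NK gene Klre1 in 47.5%, against 21.2% in B cell-like cells. The other plasma markers there were Xbp1 at 65.6%, Irf4 at 45.9%, Tnfrsf17 at 36.1%, Sdc1 at 32.8% and Prdm1 at 24.6%. Mzb1 and Irf4 were also in 63.8% and 43.8% of B cell-like cells, and Prdm1 in 22.3% of NK-like cells. The B cell genes Cd79a and Ms4a1 had a UMI in 59.0% and 32.8% of plasma cell-like cells. By tag, doublets sharing a tag could make up 15.3% of the analysed cells. Median depth was 3913 UMIs in NK-like, 3908 in B cell-like, 5134 in plasma cell-like, 8091.5 in dendritic and 34582.5 in erythroid-like cells.

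A level in CPM is the number of UMIs of a gene per 1000000 UMIs of all genes in the cells concerned, and was not scaled to gene length. Whether intron reads were counted is not given, so levels of different genes may still depend on length. In NK-like cells 70 of the 75 members had at least 3 UMIs, Hspb8 had 1, and Hspb2, Hspb3, Hspb7 and Dnajc22 were at 0. Together the members took 6954, 6586 and 7128 CPM in tags 1 to 3 of NK-like cells, and 12197, 12806 and 12682 CPM in erythroid-like cells, the highest sum of the 6 classes. Plasma cell-like and dendritic cell-like cells had the lowest means of the 6 classes, at 6163 ± 358 and 6375 ± 219 CPM (SD, n = 3 tags), with overlapping tags. Without the deepest 10% of cells their order turned, at 6174 and 6133 CPM. The constitutive cytosolic Hsp90ab1 led the sum in NK-like cells at 1028 ± 59.5 CPM, followed by the constitutive Hsp70 gene Hspa8 at 856.2 ± 39.1 and the J protein gene Dnaja1 at 521 ± 77. The inducible Hspa1a and Hspa1b stood at 1.29 ± 1.12 and 3.45 ± 2.63 CPM there.

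Split by compartment, the sums moved apart between classes. ER members summed to 1552, 1523 and 1541 CPM in NK-like cells and to 4036, 3313 and 3296 in plasma cell-like cells, with no overlap. In B cell-like cells they came to 1033, 1062 and 996, and in erythroid-like cells to 704, 742 and 724, below the tags of the other classes. Mitochondrial members reached 2760, 2724 and 3001 CPM in erythroid-like cells against 910, 884 and 941 in NK-like cells. Cytosolic and nuclear members were at 8694, 9314 and 8914 in erythroid-like cells, 4453, 4139 and 4605 in NK-like cells, and 1926, 2293 and 2042 in plasma cell-like cells. The plasma sums are lowered for genes of every kind by the immunoglobulin genes, which took 47.8% of the UMIs there and 1.29% in B cell-like cells. Sums carry no test, since a few genes dominate them.

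**Figure D1:**
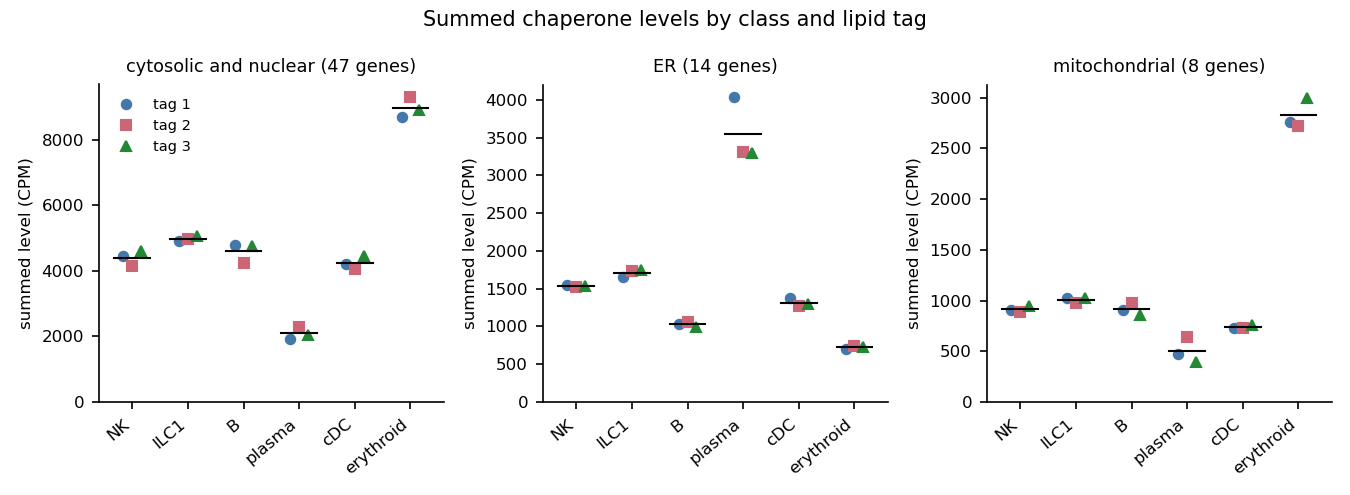
Summed level of the cytosolic and nuclear, ER and mitochondrial members (CPM, from 0) in 6 classes, with a symbol per lipid tag and a bar at the mean of 3 tags. ER members are highest in plasma cell-like cells, where the 3 tags lie between 3296 and 4036 CPM, and the other compartments in erythroid-like cells.

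Each class was compared with NK-like cells by edgeR's quasi-likelihood test on UMIs summed per tag, with Benjamini-Hochberg adjustment over all tested genes and a threshold of 0.05. These comparisons share the NK-like cells. In plasma cell-like cells, 59 members could be tested, of which 7 were higher (6.30% of all tested genes were) and 4 lower (9.46% of all). The median log2 change of the tested members was 0.11, against -0.41 for all tested genes. The higher calls were 6 of the 14 ER members and the cytosolic Dnajc7, a J protein that links Hsp70 and Hsp90. The lower calls were 2 of 32 tested cytosolic members (Dnaja1 and Dnajc9), 1 ER member (Dnajc1) and 1 mitochondrial member (Dnajc15).

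Hsp90b1, the Hsp90 of the ER, stood at 2225, 2058 and 1621 CPM in the 3 tags of plasma cell-like cells and at 335, 328 and 322 in NK-like cells. The tags of the classes lay far apart. Its log2 change was 3.46 ± 0.29 (SE), an 11.0-fold difference with edgeR adjusted p = 1.8e-30. Tag 2 of the plasma cells held 4 cells, was left out of the fit and is shown as a level only. With 2 plasma tags left, the fit took the spread mostly from other genes. The p-values and calls of plasma cells, here and against B cell-like cells, therefore say little of a gene's own spread between tags.
The ER Hsp70 Hspa5 was at 729, 619 and 774 CPM against 308, 277 and 282, again without overlap, and its log2 change was 2.29 ± 0.24 (edgeR adjusted p = 4.62e-19). Dnajc3, a luminal J protein that also holds unfolded chains, was at 528, 234 and 345 CPM against 199, 194 and 206, and changed by 2.00 ± 0.23. Dnajb9, the J protein that recruits Hspa5 to the stress sensor Ern1, was at 120, 100 and 111 CPM against 45.8, 37.8 and 46.7, a log2 change of 2.24 ± 0.30. For all of these every plasma tag exceeded every NK-like tag.
Hspa13, a small ER-associated Hsp70 relative, was at 38.1, 66.9 and 48.6 CPM against 19.4, 17.1 and 18.5, a log2 change of 2.19 ± 0.48. Dnajb11, a luminal J protein for newly made chains, was at 152, 50.2 and 200 CPM against 87.0, 86.9 and 87.1, a log2 change of 1.98 ± 0.24. Its tag 2, the 4-cell sum, was the exception below the NK-like tags. The 3 members whose promoters hold the ER stress element, Hsp90b1, Hspa5 and Dnajc3, were all among the 6 ER members called higher. Those called higher also included Dnajb9, Dnajb11 and Hspa13, of which Dnajb9 and Dnajb11 had a promoter entry without the element. The motifs were chosen after the data were seen, so this overlap is a description only. Any part of the element in these levels was not tested.

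The fitted changes are scaled by TMM, which trims genes with extreme ratios or levels. When scaled by total UMIs in its place, the median of all genes shifted to -1.35, the number of members called lower grew from 4 to 21, and 7 stayed higher in number. The Hsp90b1 change was then at its lowest over the alternatives, 2.53. Of the cytosolic core genes, Hsph1 was at 21.8, 16.7 and 16.2 CPM against 54.0, 47.6 and 55.7, and its TMM-scaled log2 change of -0.65 ± 0.50 did not pass the test (edgeR adjusted p = 0.516).

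**Figure D2:**
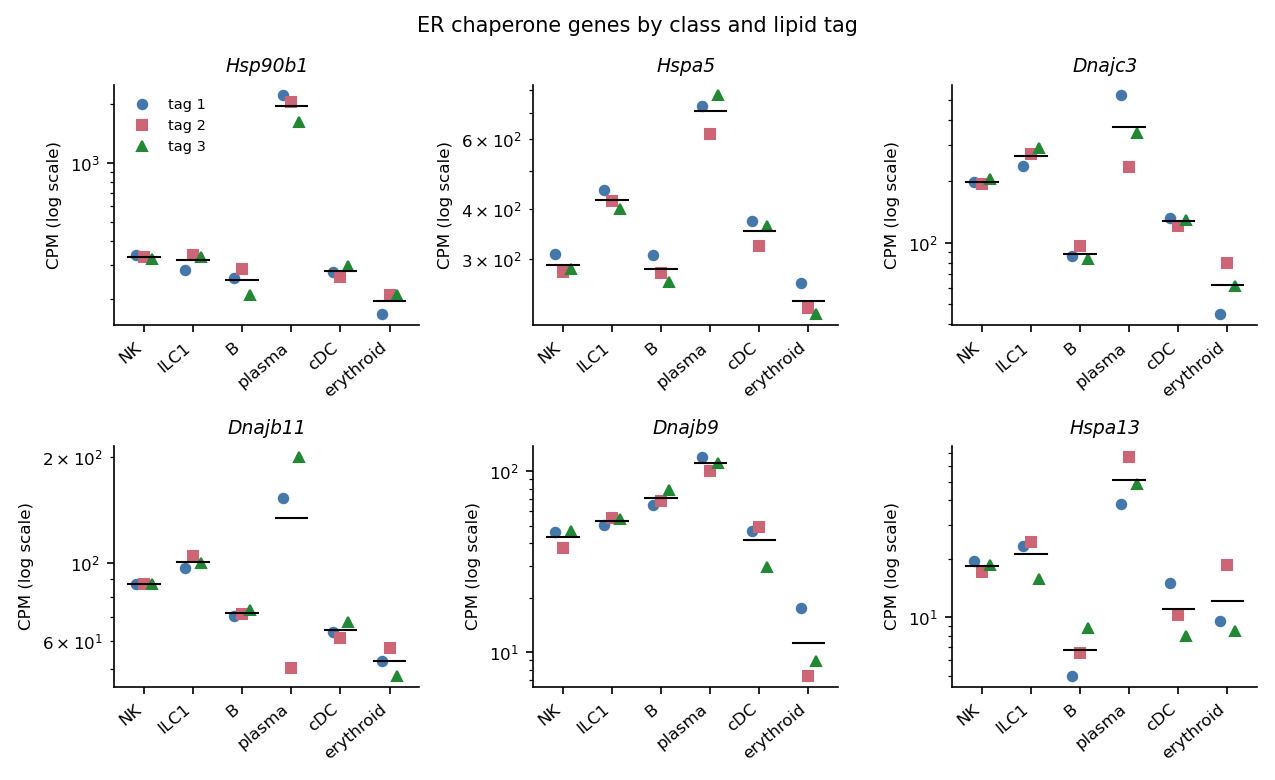
Level of 6 ER members (CPM, log axis) in 6 classes, with a symbol per lipid tag and a bar at the mean. The plasma cell-like tags lie above the NK-like tags in each panel but that of Dnajb11, where tag 2 is at 50.2 CPM.

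Against B cell-like cells, the lineage that gives rise to plasma cells, 41 members could be tested and 7 were higher (10.1% of all genes) and 1 lower (7.54%). The 6 ER genes just described were among those higher. Hsp90b1 changed by 4.05 ± 0.34, Hspa13 by 3.60 ± 0.55, Dnajc3 by 3.32 ± 0.23, Hspa5 by 2.43 ± 0.26, Dnajb11 by 2.33 ± 0.26 and Dnajb9 by 1.66 ± 0.27 on the log2 scale. Dnajb9 was at 64.7, 68.3 and 79.1 CPM in B cell-like cells, above the NK-like tags. The seventh call, Dnajc19, which tethers the mitochondrial import motor, does not hold under other scaling: its log2 change was 0.93 ± 0.29 with TMM and -0.10 with total UMIs, and 18 members in place of 1 were then called lower. The other 4 of 10 tested ER members did not pass the test.

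Other folding genes of the ER, fixed as a list without the members, were read beside them. Of 23 tested genes of ER folding and the unfolded protein response, 19 were higher in plasma cell-like than in NK-like cells, with a median log2 change of 2.16. Against B cell-like cells the count was again 19 of 23 higher, with a median of 2.31. Pdia4, a disulphide isomerase, changed by 4.36, Edem1, which sends misfolded glycoproteins to degradation, by 4.35, and Creld2 and Herpud1 by 4.16 and 4.08 against NK-like cells. The stress sensor Ern1 (log2 change -0.31 ± 0.27) and the stress factor Ddit3 (0.58 ± 0.52) were not called. The 8 genes of the cytosolic chaperonin TRiC had a median of 0.17. The plasma class was named in part by Mzb1, which acts in the ER, and by Xbp1, a transcription factor of the unfolded protein response. It held 61 cells.

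In erythroid-like cells the mitochondrial chaperonin genes Hspd1 and Hspe1 and the cytosolic Hsp90aa1, Hsp90ab1 and Hspa8 were higher than in NK-like cells, while other cytosolic and ER members were lower. Of 58 tested members, 25 were higher (29.6% of all tested genes were) and 18 lower (45.3%), with a median log2 change of 0.25 against -0.46 for all genes. Of 8 mitochondrial members 7 were higher and 1 lower, of 32 cytosolic members 15 were higher and 10 lower, and of 14 ER members 1 was higher and 6 lower. Erythroid-like cells were the deepest class, and 14 of 14 cell cycle genes were higher in them than in NK-like cells (median log2 change 3.14). The class was uneven between tags: tag 3 held 83 of its 126 cells, with haemoglobin genes at 16092 CPM against 221 and 331 in tags 1 and 2. Without tag 3, 34 of the 43 calls were kept. The part of depth and cycling in these calls was not tested.

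Hspe1 was at 1335, 1320 and 1438 CPM in erythroid-like cells and at 211, 217 and 240 in NK-like cells, a 6.89-fold difference (log2 change 2.78 ± 0.11, edgeR adjusted p = 2.34e-22). Hspd1, the ring it caps, was at 809, 794 and 888 CPM against 159, 136 and 159, a 6.17-fold difference (log2 change 2.63 ± 0.11). No tag of either class came near the other. Hspa9, the mitochondrial Hsp70 that pulls chains through the inner membrane, was at 194, 218 and 236 CPM against 60.8, 58.8 and 67.6 (log2 change 1.97 ± 0.11). Its J protein partner Dnaja3 changed by 1.08 ± 0.22, Dnajc19 by 1.43 ± 0.11 and Dnajc11, of the inner membrane scaffold, by 1.42 ± 0.20. The single mitochondrial member called lower was Dnajc15, a relative of Dnajc19 at the import channel. It was at 85.8, 73.9 and 85.1 CPM against 333, 323 and 318, and fell by 1.80 ± 0.13 on the log2 scale. The 2 import-motor J genes thus stood in opposite order in the classes: Dnajc15 above Dnajc19 in every tag of NK-like cells and below it in every tag of erythroid-like cells.

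Among cytosolic members, Hsp90aa1, the more inducible cytosolic Hsp90, was at 1206, 1596 and 1495 CPM against 331, 307 and 362 in NK-like cells (log2 change 2.27 ± 0.11). Hsp90ab1 was at 3335, 3446 and 3313 CPM against 1021, 973 and 1091 (1.88 ± 0.09), and Hspa8 at 2164, 2138 and 2106 against 841.8, 826 and 900.4 (1.49 ± 0.10). Again no tags overlapped. Dnajc6 (auxilin), which strips clathrin from vesicles with Hspa8, was at 52.5, 36.9 and 41.8 CPM against 0.610, 0.538 and 1.08, a 64.0-fold difference. It had 30 UMIs in NK-like cells and passed the expression filter through its erythroid-like counts, so this fold rests on a low base. The inducible genes were not called higher: Hspa1b was at 1.59, 0 and 0.740 CPM and was called lower, and Hspa1a was too low to test. The 2 genes together had 7 UMIs in erythroid-like cells, so the Hspa1b call rests on few UMIs. Hspa1b also passed the expression filter through its NK-like counts, the side where it was higher. In tag 1 Hspa1b was not below its NK-like level. Of 9 alternatives, 5 kept the Hspa1b call, 1 did not test the gene, and the call was lost with DESeq2, without the replicate block and without tag 3. Dnajb1, the main J partner of inducible Hsp70, was at 62.0, 72.0 and 53.3 CPM against 75.8, 61.7 and 78.7, and its difference did not pass the test (edgeR adjusted p = 0.471).
The J gene Dnaja1 fell by 0.55 ± 0.12 on the log2 scale. In the ER, Dnajc1 was at 33.4, 44.3 and 48.5 CPM against 406, 428 and 432 and fell by 3.10 ± 0.14. Dnajb9 fell by 1.93 ± 0.24, Dnajc3 by 1.54 ± 0.14, Dnajb11 by 0.59 ± 0.14 and Hsp90b1 by 0.57 ± 0.12. Hspa5 was at 261, 225 and 217 CPM against 308, 277 and 282, lower in every tag, without a call (edgeR adjusted p = 0.26).

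**Figure D3:**
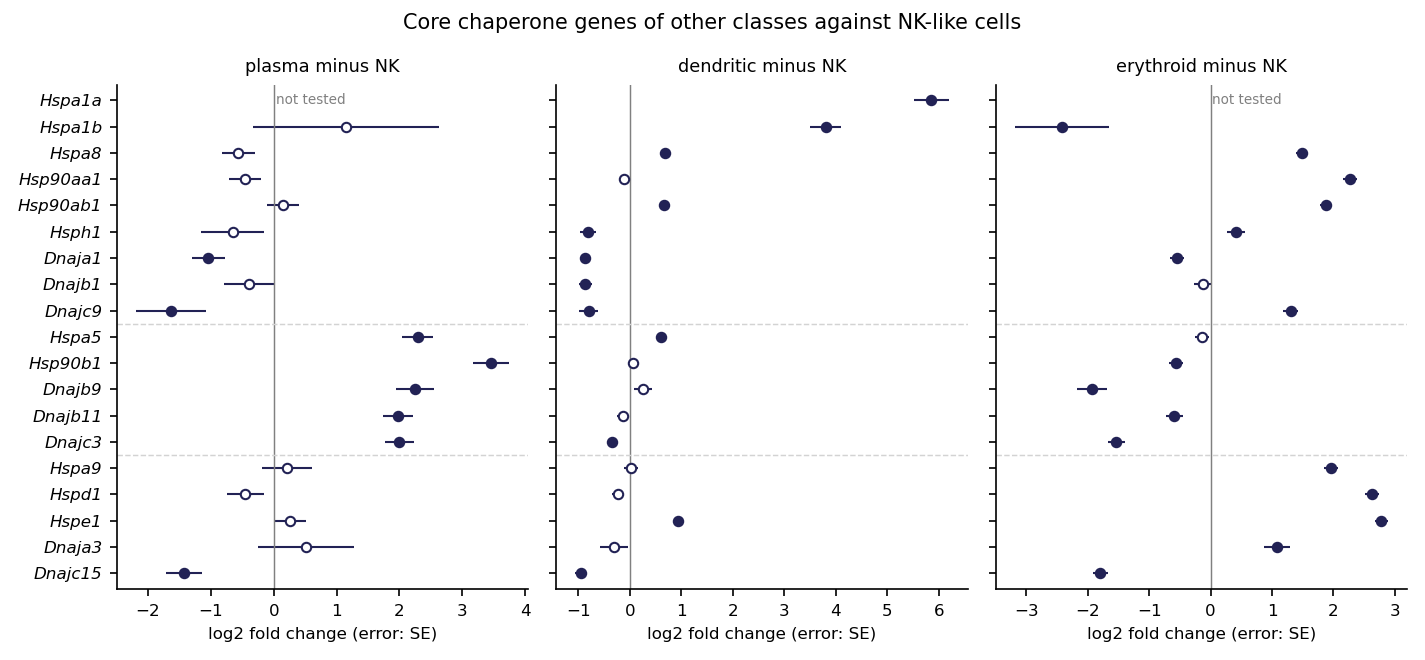
Log2 fold change (SE) of 19 core members in plasma cell-like, dendritic and erythroid-like cells against NK-like cells, with filled symbols for adjusted p under 0.05 and dashed lines between cytosolic, ER and mitochondrial members. The scales of the panels differ; Hsp90b1 leads in plasma cells at 3.46, Hspa1a in dendritic cells at 5.85 and Hspe1 in erythroid cells at 2.78.

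The partner systems of these chaperones were read from separate lists. In erythroid-like cells 8 of 8 TRiC genes were higher (median log2 change 1.86), with Cct3 at 2.30 and Cct6a at 2.18. Of 12 genes of mitochondrial folding and proteolysis, 9 were higher and 1 lower, including the protease gene Htra2 (3.40), the mitochondrial Hsp90 gene Trap1 (2.05) and the protease subunit Clpp (2.01). Among 22 cochaperones 14 were higher and 4 lower, with Bag2, a nucleotide exchange factor of Hsp70, at 4.75, and the Hsp90 immunophilin Fkbp4 at 2.67 against its relative Fkbp5 at -2.46. ER folding genes were split at 5 higher and 9 lower of 23, and the stress sensors Ern1, Eif2ak3 and Atf6 changed by -3.78, -2.48 and -2.09.

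Among the 6 classes compared, dendritic cells had the highest mean level of the inducible Hsp70 transcripts. Of 58 tested members, 15 were higher (29.4% of all tested genes were) and 15 lower (27.4%), and the median log2 change was -0.08 against -0.05 for all genes. Hspa1a was at 13.0, 75.1 and 86.3 CPM in dendritic cells and at 0.762, 0.538 and 2.58 in NK-like cells, and Hspa1b at 9.73, 56.2 and 47.7 against 1.37, 2.57 and 6.42. Tag 1 was the lowest of the dendritic tags for both, yet above every NK-like tag. The log2 change was 5.85 ± 0.34 for Hspa1a (57.7-fold) and 3.80 ± 0.30 for Hspa1b (13.97-fold). Hspa1a had 50 UMIs and Hspa1b 138 in NK-like cells, and both passed the expression filter through their dendritic counts. Their p-values are therefore not given, and their folds rest on a low base.

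The level was not even among the dendritic cells. In cluster 23, whose leading genes include Il12b, Fscn1 and Ccr7, known from migrating dendritic cells, Hspa1a was at 18.9, 187 and 343 CPM. Cluster 16, which also leads with Fscn1, had 18.0, 78.2 and 135 CPM. Clusters 22 (Cadm1, Wdfy4) and 24 (Cd209a) had 4.93, 23.01 and 17.1 and 10.8, 7.63 and 17.9 CPM. So in tags 2 and 3 clusters 23 and 16 lay above the other clusters, while in tag 1 the 4 clusters spanned 4.93 to 18.9 CPM. Hspa1b had the same highest cluster in each tag, at 30.2, 140 and 213 CPM in cluster 23. These are 108 to 227 cells per cluster over 3 tags and no test was made between clusters.
Other sorts of cell held some of the transcript too: Hspa1a was at 39.3, 12.4 and 54.7 CPM in 79 monocyte and macrophage-like cells and at 13.3, 62.9 and 63.9 in 148 mural and fibroblast-like cells. In B cell-like cells Hspa1a was at 4.98, 0 and 2.44 CPM. Immediate-early genes, which respond to handling within minutes, had the other order of tags in dendritic cells, with sums of 7600, 4388 and 4688 CPM, tag 1 highest, and 6571, 3746 and 3802 in NK-like cells. Of 15 such genes 11 were higher and 3 lower in dendritic than in NK-like cells, led by Atf3 at a log2 change of 4.31. The part of this response in the Hspa1a level was not tested.

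**Figure D4:**
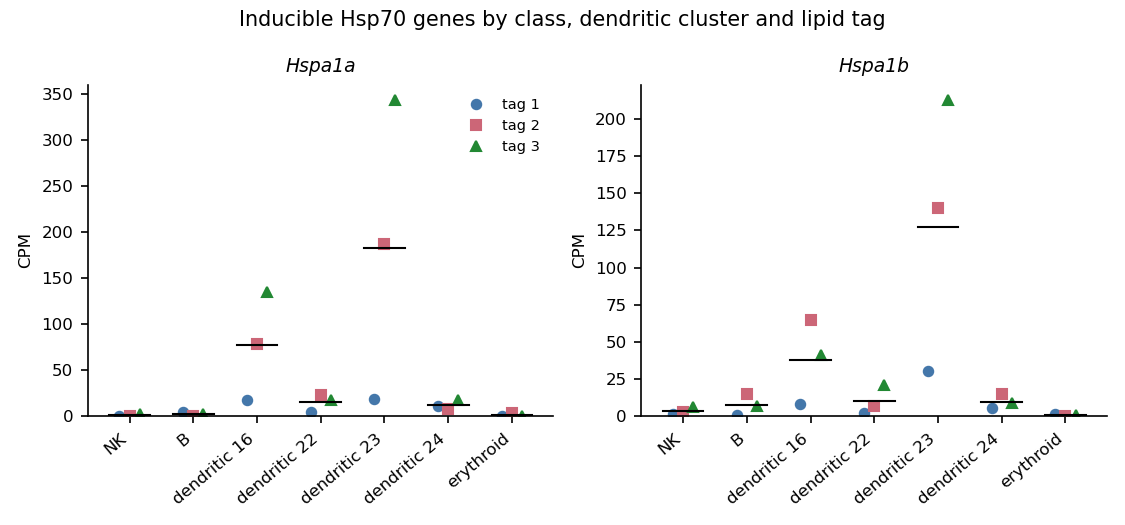
Level of Hspa1a and Hspa1b (CPM, from 0) in NK-like, B cell-like and erythroid-like cells and in 4 dendritic clusters, with a symbol per lipid tag and a bar at the mean. Cluster 23 reaches 343 CPM of Hspa1a in tag 3, and tag 1 stays at 18.9 CPM there.

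The partners of inducible Hsp70 did not rise with it. Dnajb1 was at 35.7, 28.6 and 31.6 CPM in dendritic cells against 75.8, 61.7 and 78.7 in NK-like cells and fell by 0.86 ± 0.13 on the log2 scale (edgeR adjusted p = 5.67e-05). Hsph1, the Hsp110 exchange factor, was at 22.7, 17.9 and 32.2 CPM against 54.0, 47.6 and 55.7 and fell by 0.81 ± 0.16, and Dnaja1 fell by 0.87 ± 0.09. No dendritic tag reached an NK-like tag for any of these. The J genes Dnajb4 and Dnaja4 fell by 1.97 ± 0.17 and 2.43 ± 0.33. Of the heat shock regulators, Hsf1 changed by -0.80 and Hsf2 by 1.71, and 8 of 22 cochaperones were lower by edgeR. Among constitutive members, Hspe1 rose by 0.93 ± 0.09, Hspa8 by 0.69 ± 0.08, Hsp90ab1 by 0.65 ± 0.08 and Hspa5 by 0.60 ± 0.09.
Dnajb14, a J protein of the ER membrane, was at 98.6, 89.4 and 68.1 CPM against 18.4, 19.6 and 16.4 (log2 change 2.54 ± 0.13), but its locus overlaps other annotated genes on the same strand, whose reads may not be separable. Dnajc22 had 22 UMIs in dendritic cells, 14 in cluster 16 and 8 in cluster 23, and 0 in NK-like cells. Against a floor of 3 counts over the NK-like class it was at least 57.2-fold higher. With total-UMI scaling the count of members lower in dendritic cells was 29 in place of 15, with 13 higher, and the median of all genes was -0.36.

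In B cell-like cells the mitochondrial co-chaperonin gene Hspe1 was higher than in NK-like cells, and Dnajc15, a J protein gene of the mitochondrial inner membrane, was lower. Of 57 tested members, 16 were higher (20.5% of all tested genes were) and 12 lower (22.6%), with a median log2 change of 0.11 against -0.05. By compartment, 9 of 32 cytosolic members were higher and 5 lower, 4 of 8 mitochondrial members were higher and 1 lower, and 1 of 14 ER members was higher and 6 lower. The summed level of the mitochondrial members, at 908, 972 and 854 CPM, overlapped that of NK-like cells at 909.5, 884 and 941. Dnajc15 was at 70.7, 78.0 and 70.8 CPM against 333, 323 and 318 in NK-like cells and fell by 1.99 ± 0.10 (edgeR adjusted p = 1.33e-19). It did not exceed 154 CPM in any tag of B, plasma, dendritic and erythroid-like cells and was at 265 CPM or above in every tag of NK-like and ILC1-like cells. In contrast Hspe1 was at 414, 450 and 393 CPM against 211, 217 and 240 and rose by 1.07 ± 0.08, and Hspa9 and Hspd1 rose by 0.64 ± 0.11 and 0.43 ± 0.09. Of the 14 ER members 6 were lower, with Dnajc3 at 86.6, 95.9 and 83.0 CPM against 199, 194 and 206 (-1.03 ± 0.10), Dnajc1 at -1.26 ± 0.09 and Hspa13 at -1.17 ± 0.28. Dnajb9 was the 1 ER member that rose, by 0.88 ± 0.12. Hspa5 was not called (0.13 ± 0.08, edgeR adjusted p = 0.206).
In the cytosol Dnajc7 rose by 1.22 ± 0.09, Hsp90ab1 by 0.61 ± 0.07 and Dnajc9 by 0.61 ± 0.11, while Dnaja4 fell by 2.26 ± 0.38 and Hspa4l, an Hsp110 relative, by 0.95 ± 0.20. Total-UMI scaling gave 11 higher and 18 lower, with the median of all genes at -0.22.

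In ILC1-like cells the ER Hsp70 gene Hspa5 and the cytosolic Hsp90ab1 were higher than in NK-like cells. Of 57 tested members, 10 were higher (16.6% of all tested genes were) and 5 lower (14.4%), with a median log2 change of 0.04 against -0.01. Shares called were near those of all genes for higher calls and below them for lower calls. Of other genes, 11 of 14 cell cycle genes (median log2 change 1.12) and 11 of 15 immediate-early genes (0.86) were higher, and the 10 dendritic markers summed to 1957, 2046 and 1069 CPM against 374, 365 and 395, with Clec9a and Cd209a at 0. Their part in the calls was not tested. Hspa5 was at 448, 419 and 399 CPM against 308, 277 and 282 (0.54 ± 0.07, edgeR adjusted p = 1.45e-07), Hsp90ab1 at 1366, 1459 and 1435 against 1021, 973 and 1091 (0.47 ± 0.05), and Hspe1 at 293, 285 and 333 against 211, 217 and 240 (0.44 ± 0.07). None of these tags overlapped. Dnajc3 rose by 0.42 ± 0.08, and Dnajb4 and Hspa4l fell by 0.68 ± 0.12 and 0.79 ± 0.19. The difference was larger for Dnajc6, at 19.6, 27.1 and 32.3 CPM against 0.610, 0.538 and 1.08 in NK-like cells, a log2 change of 5.15 ± 0.37 (35.4-fold). Dnajc6 had 30 UMIs in NK-like cells and passed the expression filter through its ILC1-like counts. Its p-value is therefore not given, and its fold rests on a low base.
Dnajc6 stood higher in the ILC1-like cluster with the most Il23r-positive cells, 85 cells, at 87.0, 93.5 and 113 CPM. Without that cluster the log2 change was 4.14. It was also at 131, 203 and 142 CPM in 162 progenitor-like cells. In B cell-like cells it was at 0.995, 0 and 1.46 CPM and in plasma cell-like cells at 0, where 3 counts would be 4.88 CPM.

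NK cells mature from cells with the receptor Cd27 to cells with the integrin Itgam (CD11b). NK-like cells were thinned to 2500 UMIs and grouped by UMIs of these genes, which gave 1047 Cd27-only, 458 with both, 2548 Itgam-only and 3732 with neither. The sum of the members was 6912 ± 371 CPM in Cd27-only, 6682 ± 311 with both, 6792 ± 328 in Itgam-only and 7018 ± 239 CPM with neither (SD, n = 3 tags). The ranges over tags overlapped between all 4 groups. Within each tag, cells with neither lay above Itgam-only cells, at 7124 against 6880, 6744 against 6429 and 7186 against 7068 CPM, and the sums were not tested. Of 52 members tested between Cd27-only and Itgam-only cells, 7 were higher (9.51% of all tested genes were) and 2 lower (6.92%), with medians of 0.03 and -0.01 for members and all genes. Cd27-only cells were deeper, with a median of 5215 UMIs against 3812, and 6 of 12 tested cell cycle genes were higher in them. Without the cells in cycle, the 9 calls were kept.

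Hsp90ab1 was at 1093, 1040 and 1273 CPM in Cd27-only cells and at 906, 861 and 1006 in Itgam-only cells, higher in each tag by itself, and changed by 0.35 ± 0.04 (edgeR adjusted p = 6.49e-10). Hspe1 was at 248, 226 and 282 CPM against 189, 195 and 216, without overlap (0.38 ± 0.06). Hspa8 was at 869, 863 and 970.0 CPM against 801, 747 and 868, with tag 3 of the Itgam-only cells above tag 2 of the Cd27-only cells (0.22 ± 0.04). These 3 calls held in 12 of 12 alternatives.
The ER gene Hspa5 was at 325, 306 and 292 CPM against 290, 249 and 273 (0.25 ± 0.05) and held in 9 of 12, and the Hsp110 gene Hspa4 changed by 0.25 ± 0.06 and held in 10 of 12. The calls of Hspa9 (0.31 ± 0.10) and Dnajc24 (0.40 ± 0.13) held in 2 and 1 of 12 alternatives. Of the lower calls, Dnajb14 was at 8.77, 13.8 and 12.9 CPM against 26.5, 26.0 and 19.9 and fell by 0.96 ± 0.19, and Dnajc1 fell by 0.16 ± 0.05 and held in 6 of 12. Dnajb1 was lower in each tag without a call (-0.20 ± 0.09, edgeR adjusted p = 0.165). With DESeq2 3 members were higher and none lower, where 2 were lower at an unadjusted p under 0.05, and with total-UMI scaling the split was 5 higher and 7 lower.

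**Figure D5:**
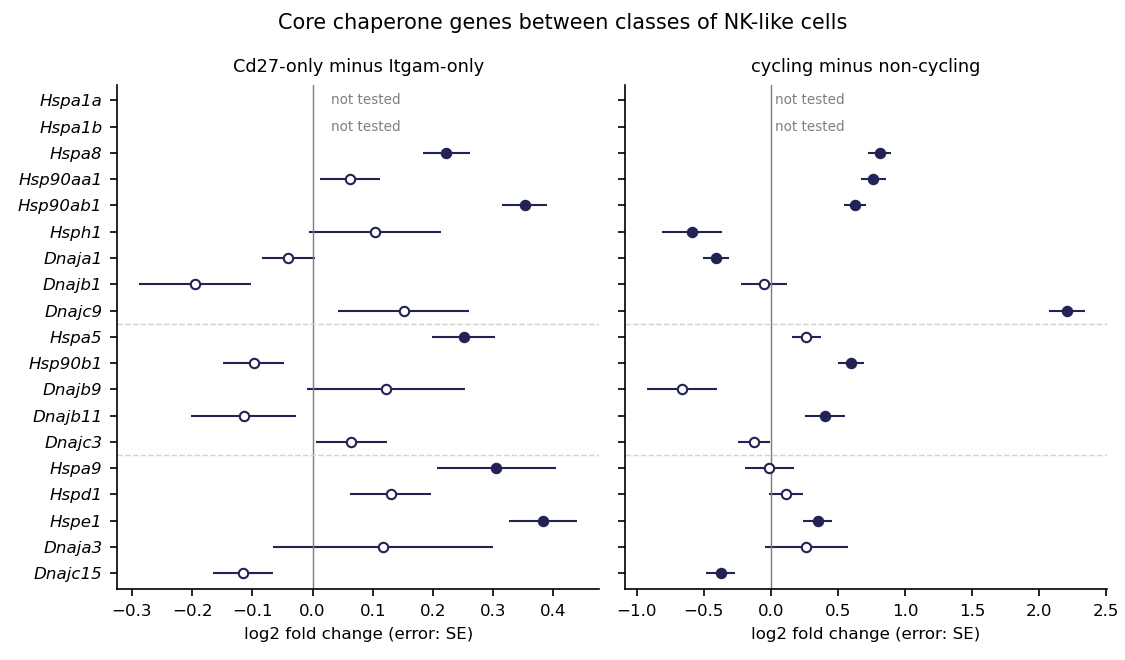
Log2 fold change (SE) of 19 core members between Cd27-only and Itgam-only NK-like cells and between cycling and non-cycling NK-like cells, with filled symbols for adjusted p under 0.05 and dashed lines between cytosolic, ER and mitochondrial members. The scales differ: the called changes of the left panel lie between 0.22 and 0.38, and Dnajc9 in the right panel is at 2.21.

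Cycling NK-like cells, those with at least 2 of 14 cell cycle genes after thinning, numbered 121 against 7033 with none, and had a median of 12157 UMIs against 4208. Of 55 tested members, 11 were higher (15.5% of all tested genes were) and 10 lower (11.5%), with medians of -0.08 and -0.06. Dnajc9, a J protein that is also a histone chaperone, was at 265, 168 and 272 CPM in cycling cells and at 55.2, 55.1 and 55.8 in non-cycling cells, and rose by 2.21 ± 0.13 (edgeR adjusted p = 3.19e-19). Hspa8 was at 1479, 1152 and 1374 CPM against 819, 821 and 893 (0.81 ± 0.08). No tags overlapped for either gene. Hsp90aa1 rose by 0.76 ± 0.10, Hsp90ab1 by 0.63 ± 0.08, Hsp90b1 by 0.60 ± 0.10 and Hspa14, an Hsp70 of the ribosome, by 0.85 ± 0.15. The first 3 of these, Dnajc9 and Hspa8 held in 11 of 11 alternatives.
In the other direction Dnajb4 was at 42.0, 31.0 and 31.0 CPM against 91.7, 76.8 and 84.5 and fell by 1.13 ± 0.20, in 11 of 11 alternatives. Dnaja1 was at 425, 284 and 374 CPM against 567, 441 and 586 and fell by 0.41 ± 0.10, and Dnajc15 fell by 0.38 ± 0.11. The Hsph1 call (-0.59 ± 0.22) held in 3 of 11. Of the 8 TRiC genes 5 were higher, led by Tcp1 at 0.66. Counts in both directions rested on the setting. With DESeq2, 7 members were higher and 2 lower, in place of 11 and 10, and 9 of the 21 calls were kept. When NK-like clusters were named by fold over all other cells, 5 were higher and 1 lower, and 6 of the 21 calls were kept. Leaving out a tag left 8 to 11 higher and 4 to 6 lower. Whether the difference in depth bears on these calls was not tested.

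Within NK-like cells thinned to 2500 UMIs, 85 of 7785 cells held a UMI of Hspa1a or Hspa1b. By gene the share was 0.283% for Hspa1a and 0.848% for Hspa1b, against 10.7% and 8.40% in dendritic cell-like cells and 0.475% and 1.90% in B cell-like cells. Dnajb1 had a UMI in 31.8% of the 85 cells and in 16.6% of the 7700 others, and without thinning in 46.7% of 135 and 26.1% of 8934. By tag the thinned share was 21.4%, 8.70% and 45.8% against 17.6%, 14.7% and 18.0%, lower in tag 2. Hsph1 had a UMI in 22.4% against 11.0%, and in 35.7%, 21.7% and 18.8% against 11.6%, 9.99% and 11.7% by tag. With tags pooled, Hsp90aa1, Dnaja1, Hspa8, Hspa5, Hspd1, Hspe1 and Dnajc7 also had a UMI in a larger share of the 85 cells. The mitochondrial Hspe1 was in 56.5% against 39.6% and Dnajc7 in 28.2% against 21.2%. Dnaja2 was not higher, at 35.3% against 36.9%. A higher share was thus not particular to Dnajb1 and Hsph1. These shares describe cell barcodes of 1 library and not replicates, and whether the few UMIs of Hspa1a and Hspa1b came from free RNA or from doublets with dendritic cells was not tested.

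The small heat shock genes, whose products hold unfolded chains without ATP, had few UMIs in these lymphocytes. Hspb6 was the highest of the 7 in NK-like cells, at 1.24 ± 0.34 CPM (SD, n = 3 tags). Hspb1 was at 0.229, 0.658 and 0.333 CPM in NK-like cells and at 466, 1238 and 904 CPM in the mural and fibroblast-like cells, a class with no test here.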

How the data were processed

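UMI counts per gene and lipid tag were taken as deposited by the authors, as raw whole numbers. Per the file headers, Cell Ranger 7.0.0 made the matrix. Seurat and the build mm10 are also named in the submitters' processing notes. Annotation, strand setting and any use of intron reads are not given here in any source used, so reads of overlapping genes may not be separable (42 of the 75 members overlap another annotated gene, 21 on the same strand). A further sample of the labels was not analysed here.

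The filter of 500 to 6000 genes and up to 10% mitochondrial UMIs kept 15742 of 16384 barcodes. Those above exactly 1 tag threshold (133, 186 and 130 counts) were analysed, which left out 3567 with several tags and 479 with none. No doublet caller was run. Gene UMIs per tag came to 18485480, 23091461 and 22465648. Cells were clustered with scanpy 1.11.5 (2000 variable genes, 30 components, 15 neighbours, Leiden resolution 2), with the members, the other chaperone lists and cell cycle genes left out. A resolution of 1 joined plasma cells with other cells, so the resolution was raised after the clusters were seen. A cluster was named from markers when at least 3 were detected. The fold behind its leading genes was taken over cells of clusters with another best marker score, also set after the clusters were seen. Plasma cell-like cells of tag 2 (4 cells) were left out of the fit.

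Sums of UMIs for each class within a tag were compared by edgeR 4.0.16 (R 4.3.3, limma 3.58.1; quasi-likelihood test, TMM, filterByExpr, tag as block, Benjamini-Hochberg adjustment over all tested genes, threshold 0.05). Every tag runs through every class, which is why the tag is a block. Fits were tested on simulated data. CPM divide by the gene UMIs of the same cells. Intervals are exact binomial at 95% and floors are 3 counts; both cover counting error only. DESeq2 1.42.0, other scaling, filters, gates and left-out tags were tried as alternatives. Alternatives on naming, on the deepest 10% of cells and on the Il23r cluster were chosen after seeing the data, as were the motifs and the promoters printed. The values of 1 member are not reported here. The text names 19 core members in every comparison, up to 10 further members past the threshold by size of change, and up to 4 genes per list. The members and lists were chosen with earlier results of these data known, so nothing here is independent of them.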

Additional observations from a re-analysis of the deposited data

How the results depend on the processing

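The values of named members kept their direction and side of the threshold in 1613 of the alternatives run, lost a call in 176, gained one in 43 and reversed in 5. Each reversal came with scaling by total UMIs: Hsp90ab1 and Hspe1 between plasma cell-like and NK-like cells (log2 change -0.78 and -0.67), Dnajb1 and Dnajc19 between plasma cell-like and B cell-like cells (-0.95 and -0.10), and Hsp90b1 between dendritic and NK-like cells (-0.24). That scaling moved the median of all genes to -0.07 (Cd27-only against Itgam-only), -0.22 (cycling), -0.22 (B), -1.35 (plasma against NK-like), -1.09 (plasma against B), -0.36 (dendritic) and -0.65 (erythroid), and the number of members lower from 2 to 7, from 10 to 13, from 12 to 18, from 4 to 21, from 1 to 18, from 15 to 29 and from 18 to 22. With DESeq2, members higher and lower numbered 3 and 0 in Cd27-only cells, 7 and 2 in cycling cells and 6 and 2 in ILC1-like cells, and members lower numbered 0 in plasma cell-like cells against NK-like and 0 against B cell-like cells, where DESeq2 had 3 and 1 at an unadjusted p under 0.05 and edgeR called 4 and 1. Without the replicate block, members higher and lower in Cd27-only cells numbered 4 and 1 and those lower in ILC1-like cells 3. In Cd27-only cells, at least 2 UMIs of the gate gene gave 4 higher and 0 lower (2 lower at an unadjusted p under 0.05, edgeR), the unthinned gate gave 7 lower, and naming by fold over all other cells, which drops 3 NK-like clusters, gave 4 and 1; for cycling cells that naming gave 5 and 1. No expression filter gave 6 higher in ILC1-like cells, and leaving out the deepest 10% of cells 3 lower. Leaving out a tag gave ranges of 5 to 6 higher and 1 to 2 lower (Cd27-only), 8 to 11 and 4 to 6 (cycling), 6 to 8 and 3 to 4 (ILC1-like), 12 to 13 and 9 to 11 (B), 13 to 17 and 11 to 14 (dendritic) and 19 to 30 and 15 to 18 (erythroid); in ILC1-like cells the 6 came without tag 1. For plasma cells only tag 2 could be left out. Without the deepest 10% of cells the summed level was 7419 in ILC1-like and 6133 CPM in dendritic cells, and unthinned the Dnajb1 share was 46.7% in cells with Hspa1a or Hspa1b and 26.1% in the others. The causes were not tested. The alternative naming by best score gave the same cells as the main one and has no separate value. Naming by fold over all other cells also left dendritic cluster 16 (227 cells) unnamed, but it was applied to NK-like cells only. The dendritic calls were not run without that cluster. Plasma results rest on 19 and 38 cells in the 2 fitted tags, and low genes such as Hspa1a in NK-like cells on few UMIs.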
